A study of Arabidopsis thaliana with 84 samples.

Results

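Transcripts of 4 nuclear genes that encode plastid proteins were followed in roots of Arabidopsis thaliana: RCA, PRK and SBPASE of the Calvin-Benson cycle, and ATPC1 of the plastid ATP synthase. They were chosen by name, with earlier results of these data known. The platform annotation gives each of them 1 probe set shared with no other gene (RCA 245061_at, AT2G39730; PRK 255720_at, AT1G32060; SBPASE 251762_at, AT3G55800; ATPC1 255290_at, AT4G04640). They are 4 of 13350 genes that the annotation pairs with a probe set of their own. All values are log2 expression signals, and the study compared root cell populations after nitrate with the same populations after chloride. No sequence or coordinate of these genes was used here.

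The Calvin-Benson cycle fixes carbon dioxide in the plastid stroma with ATP and reducing power from the thylakoid reactions. Rubisco, the fixing enzyme, is kept active by Rubisco activase (RCA), its sugar acceptor is made by phosphoribulokinase (PRK), and sedoheptulose-bisphosphatase (SBPASE) acts in the regeneration of that acceptor. The plastid ATP synthase makes ATP from the proton gradient across the thylakoid membrane, and ATPC1 encodes the gamma subunit of its rotating stalk. Root plastids are mostly not green, and these genes are best known from leaves, where light and the state of the plastid set their transcript levels.

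The 84 arrays formed 28 groups of 3. All plants were Col-0, grown hydroponically for 12 days with ammonium succinate as the only nitrogen source and with sucrose, and all were then given KNO3 at 5 mM or, as control, KCl at 5 mM. Treatment lasted 2 h, or 3.5 h in 2 groups of whole roots. Roots were digested to single cells, and fluorescence sorting gave 5 populations: lateral root cap (LRC), epidermis with cortex (EpiC), endodermis with pericycle (EndoP), pericycle (Peri) and stele (Stele). Nitrate was either kept in the digestion solution (continuous) or left out of it (transitory). Each population had a KCl group, a transitory and a continuous nitrate group. Peri also had 3 groups with 1 mM MSX (methionine sulfoximine, an inhibitor of glutamine synthetase): in KCl, in nitrate, and in nitrate plus 5 mM glutamine. Unsorted protoplasts were held on ice in place of sorting, and incubated whole roots went through the digestion solution without enzymes. Both had the KCl, transitory and continuous treatments. Other whole roots were frozen straight after KCl or nitrate. The fluorescent lines behind each sort are not given in the sources used here. Sample titles call the 3 arrays of a group biological replicates. The labels do not say whether these came from separate cultures, so p-values measure the spread between these arrays.

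RNA of sorted cells went through two-cycle labelling (54 arrays), that of whole roots and unsorted protoplasts through one-cycle labelling (30 arrays), and no comparison crosses the protocols. Among the sorted arrays, replicate 1 of LRC in continuous nitrate and replicate 1 of EndoP in transitory nitrate stood apart, with a median Pearson correlation to the other arrays of their population of 0.667 and 0.572. Among the one-cycle arrays, 4 correlated with the rest of their protocol at a median under 0.7 and were left out of the tests: replicate 1 of whole roots in KCl for 2 h, replicates 1 and 2 of incubated roots in KCl, and replicate 2 of incubated roots in continuous nitrate. All 4 genes passed the filter on low values in both protocols. Their probe sets exceeded the filter level, 6.49, on 44 (RCA), 19 (PRK), 41 (SBPASE) and 48 (ATPC1) of the 54 sorted arrays. PRK was thus near the low end of the range in most groups. Of 32 listed markers of root cell types, 9 could be named. In KCl the summed level of the LRC marker was 7.03 to 9.02 in LRC and at most 6.72 in any other population. LBD16, a pericycle marker, was 7.08 to 8.51 in Peri and 6.74 to 7.26 in EndoP. Other markers overlapped between populations in KCl. The stele marker was 9.78 to 11.07 in Stele and 9.45 to 11.21 in EpiC. The endodermis marker was 8.38 to 8.51 in EndoP and 8.15 to 9.46 in Peri. The summed level of the cortex markers was 8.41 to 8.62 in EpiC and 8.17 to 8.98 in Peri. The summed level of EXPA7 and EXPA18, 2 expansins of root hair cells, was 7.24 to 7.87 in EpiC and 9.45 to 9.78 in EndoP, so that these markers did not set EpiC apart as epidermis. The population is called EpiC here by its label.

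In KCl the 4 genes stood highest in EpiC. RCA had a level of 9.47, 10.19 and 9.82 on the EpiC arrays. The levels of RCA were 7.98, 7.37 and 8.16 in LRC, 8.26, 7.63 and 7.68 in Peri, 6.51, 6.61 and 6.98 in EndoP, and 6.47, 6.26 and 6.39 in Stele. Every EpiC array thus lay above every array of the other populations, and LRC and Peri lay above EndoP and Stele. ATPC1 had a level of 9.06, 9.93 and 10.01 in EpiC. Its levels were 8.11, 7.51 and 8.99 in LRC, 8.96, 7.92 and 8.20 in Peri, 6.67, 6.71 and 7.53 in EndoP, and 6.35, 6.51 and 6.84 in Stele. The EpiC values of this subunit gene again lay above all others in KCl, with LRC and Peri next. PRK measured 7.86, 9.25 and 8.58 in EpiC, and its level lay between 5.29 and 7.39 in the other populations. SBPASE measured 8.65, 9.14 and 8.45 in EpiC, and its level lay between 6.09 and 7.63 elsewhere. The EpiC arrays of both enzymes were above all other KCl arrays. How many of all probe sets had EpiC apart in this way in KCl was not counted.

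**Figure D1:**
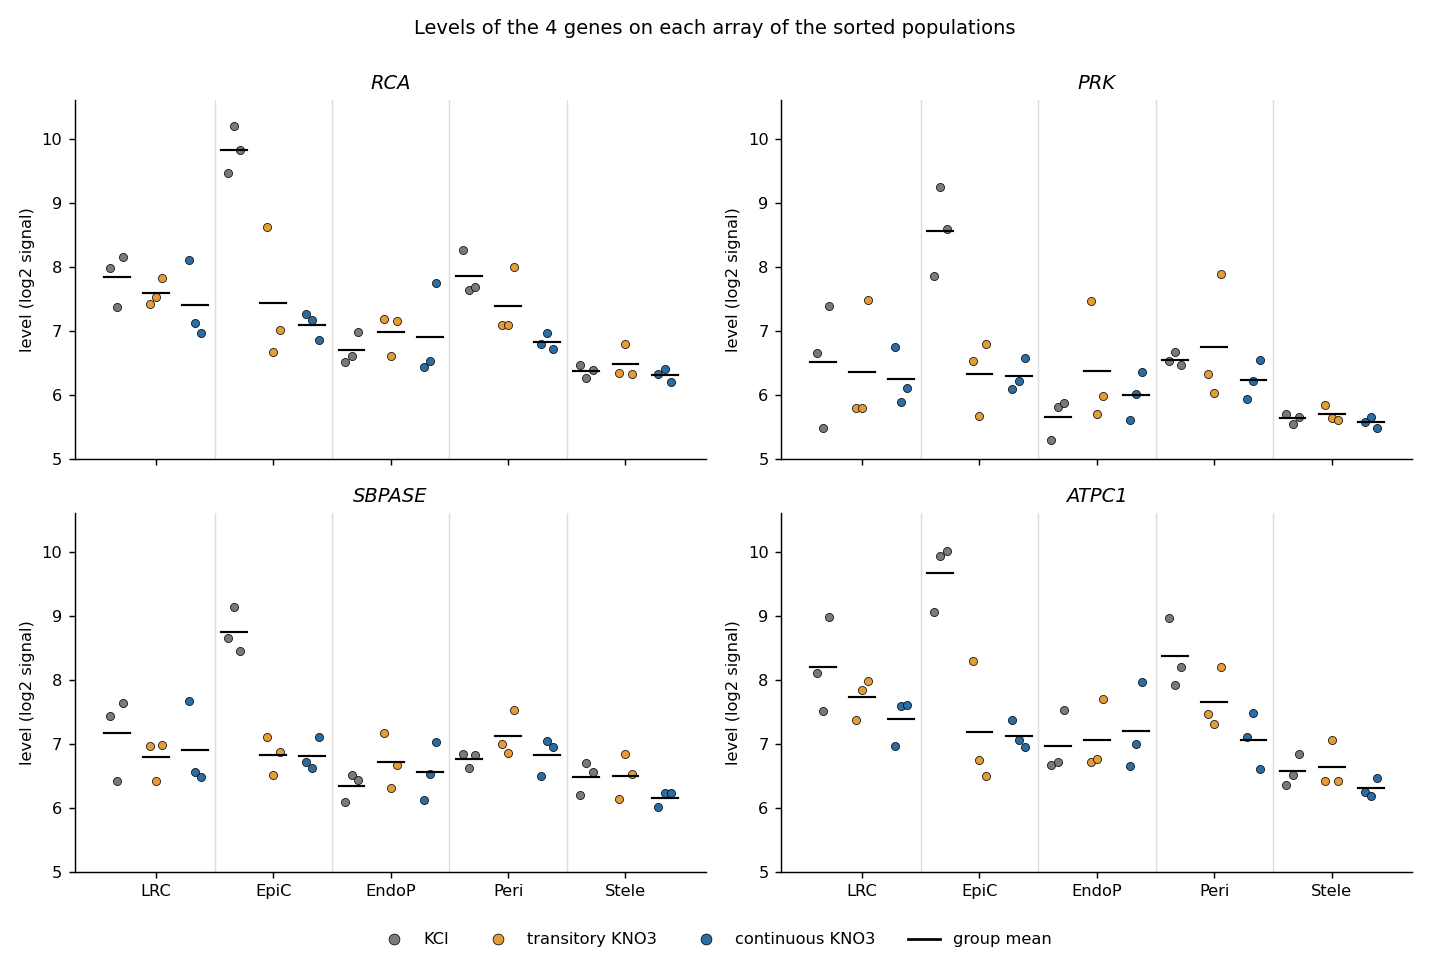
Level (log2 signal) of RCA, PRK, SBPASE and ATPC1 on each array of the 5 sorted populations, with 3 points per group for KCl, transitory nitrate and continuous nitrate and a line at the group mean. The 3 EpiC arrays in KCl form the highest group in each panel, at a mean of 9.83 for RCA, 8.56 for PRK, 8.75 for SBPASE and 9.67 for ATPC1.

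The 5 populations in KCl differed in all 4 genes by the F test of limma, a moderated linear model fitted to all probe sets, with adjusted p of 2.49e-06 for RCA, 1.90e-05 for PRK, 5.07e-06 for SBPASE and 1.85e-05 for ATPC1. That test called 41.1% of all 19258 probe sets tested. EpiC was set apart here because earlier results of these data had the 4 genes highest there. The p-values of its contrast with the mean of the other 4 populations are thus no independent test. That contrast was narrower, with 2.78% of probe sets called higher. In it, the RCA level was 2.64 higher on the log2 scale (SE 0.38, a 6.23-fold difference, adjusted p = 2.60e-05 by limma). PRK was 2.48 higher (SE 0.37, 5.57-fold, adjusted p = 4.96e-05), SBPASE 2.06 higher (SE 0.28, 4.17-fold, adjusted p = 9.78e-06) and ATPC1 2.14 higher (SE 0.38, 4.42-fold, adjusted p = 6.05e-04). The median difference of these 4 genes was 2.31 and that of all probe sets 0.04. Array signal in KCl was 170 to 182 over EpiC, LRC and Peri, 236 to 277 in EndoP and 192 to 314 in Stele. The GAPDH control difference (3′ minus 5′ probe set, log2) was 3.50 to 4.12 in EpiC, 3.40 to 6.05 in LRC, 2.56 to 3.13 in Peri, 2.72 to 3.56 in EndoP and 2.62 to 3.69 in Stele. With array signal as a covariate the differences were 2.46 for RCA, 2.31 for PRK, 1.98 for SBPASE and 2.09 for ATPC1, all called. The part of RNA quality in them was not tested. In bulk RNA of a sorted population, fewer cells that carry a transcript and less of it per cell cannot be told apart.

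In nitrate no difference between EpiC and the other populations was called for the 4 genes. With continuous nitrate, EpiC minus the mean of the other 4 was 0.24 for RCA (95% confidence interval -0.53 to 1.00), 0.28 for PRK (-0.47 to 1.03), 0.20 for SBPASE (-0.37 to 0.77) and 0.13 for ATPC1 (-0.64 to 0.91). With transitory nitrate the same differences were 0.33 (-0.44 to 1.09), 0.03 (-0.72 to 0.79), 0.05 (-0.52 to 0.62) and -0.09 (-0.86 to 0.68). None of these 8 differences passed limma's test or had an unadjusted p under 0.05, and the test called 11.2% of probe sets in continuous and 0.872% in transitory nitrate.

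Within EpiC, all 4 genes fell under both nitrate treatments. In continuous nitrate RCA measured 7.26, 7.17 and 6.86, against 9.47 or more in KCl. The RCA level fell by 2.73 on the log2 scale (SE 0.48, 6.65-fold, adjusted p = 0.00178 by limma). PRK measured 6.09, 6.21 and 6.58, against 7.86 or more in KCl. Its level fell by 2.27 (SE 0.47, 4.83-fold, adjusted p = 0.00702). SBPASE measured 6.72, 6.62 and 7.10, against 8.45 or more, and fell by 1.94 (SE 0.36, 3.83-fold, adjusted p = 0.00261). ATPC1 measured 7.36, 7.05 and 6.95, against 9.06 or more, and fell by 2.54 (SE 0.48, 5.83-fold, adjusted p = 0.00318). Each gene's continuous nitrate arrays were all below its KCl arrays. Over all probe sets, 0.353% were called lower, and 4.41% had every nitrate array below every KCl array.

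Transitory nitrate gave lower levels of the same enzymes. RCA measured 8.62, 6.67 and 7.02, PRK 6.52, 5.67 and 6.79, SBPASE 7.10, 6.51 and 6.87, and ATPC1 8.29, 6.74 and 6.49. Replicate 1 was the highest array of the group for RCA, SBPASE and ATPC1, yet each transitory array lay below each KCl array. The difference from KCl was -2.39 for RCA (SE 0.48, adjusted p = 0.0133), -2.24 for PRK (SE 0.47, adjusted p = 0.0195), -1.92 for SBPASE (SE 0.36, adjusted p = 0.00663) and -2.49 for ATPC1 (SE 0.48, adjusted p = 0.0102), by limma. Of all probe sets, 0.254% were called lower here and 4.06% had every nitrate array below every KCl array. Both nitrate treatments were set against the same 3 KCl arrays, so the falls are not independent of each other or of the high KCl levels above. Continuous minus transitory nitrate was -0.34 for RCA (95% interval -1.31 to 0.63), -0.04 for PRK (-0.99 to 0.91), -0.02 for SBPASE (-0.74 to 0.70) and -0.05 for ATPC1 (-1.03 to 0.93). Limma called no probe set in that contrast (0%), and none of the 4 genes had an unadjusted p under 0.05.

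Leaving out single arrays ended some of these calls. Without EpiC KCl replicate 2, the array with the highest RCA, PRK and SBPASE, continuous nitrate kept a call for RCA (adjusted p = 0.0326) and gave an adjusted p of 0.158 for PRK, 0.0548 for SBPASE and 0.0517 for ATPC1. Without continuous nitrate replicate 1, PRK had an adjusted p of 0.0638. For transitory nitrate, none of the 4 genes passed without EpiC KCl replicate 2, without transitory replicate 2 or without transitory replicate 3, and SBPASE alone passed without KCl replicate 3 (adjusted p = 0.0392). A fit to the 6 arrays of the transitory comparison alone called none of the 4, with adjusted p from 0.0742 to 0.169. PRK had an adjusted p of 0.0614 in transitory nitrate on the values as deposited. Across all alternatives of both treatments the differences ranged from -3.05 to -1.72.

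Measures of array quality and cell markers were set beside these falls. The GAPDH control, as the signal of its 3′ probe set minus that of its 5′ probe set, was 3.50 to 4.12 in EpiC in KCl, 2.88 to 4.02 in transitory and 2.58 to 3.49 in continuous nitrate, so that KCl and continuous nitrate did not overlap. Mean array signal was 173 to 182, 173 to 201 and 175 to 183 in the same order. None of the 9 named cell type markers was called in EpiC in either nitrate treatment. The summed level of 3 cortex markers was 8.41 to 8.62 in KCl, 8.68 to 9.14 in transitory and 8.72 to 8.98 in continuous nitrate, higher on every nitrate array. The summed level was 7.24 to 7.87, 6.85 to 8.60 and 7.12 to 8.17 for the 2 epidermis markers, and 9.45 to 11.21, 9.28 to 10.70 and 9.39 to 10.83 for the stele marker. The markers of LRC (1 of 4 listed named), endodermis (1 of 8) and pericycle (1 of 4) overlapped between KCl and each nitrate treatment, at lowest levels of 5.12 (LRC), 7.26 (endodermis) and 5.68 (pericycle) in EpiC. The part of RNA quality or cell make-up in the falls was not tested.

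**Figure D2:**
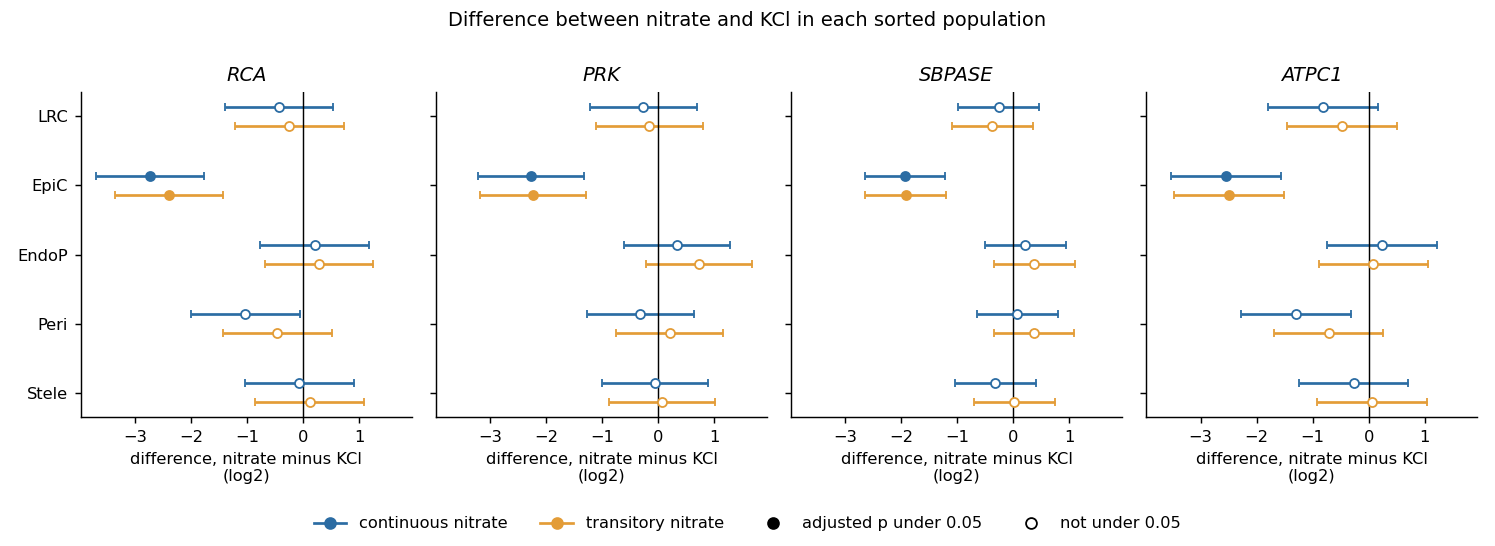
Difference (log2) between nitrate and KCl for each gene in each sorted population, with 95% confidence intervals from limma. Filled points passed an adjusted p of 0.05. The EpiC points lie between -1.92 and -2.73, and the intervals of EpiC lie wholly below 0.

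In the other 4 populations no nitrate difference of the 4 genes was called in 32 tests, of which 2 had an unadjusted p under 0.05. Both were in Peri with continuous nitrate. There ATPC1 measured 7.11, 7.48 and 6.60, against 8.96, 7.92 and 8.20 in KCl. Its groups did not overlap, and the difference was -1.30 (SE 0.48, adjusted p = 0.0532 by limma). RCA measured 6.79, 6.96 and 6.72 in Peri, against 8.26, 7.63 and 7.68 in KCl, again without overlap. How many of all probe sets had no overlap in Peri was not counted. The RCA difference was -1.03 (SE 0.48, adjusted p = 0.105). In the same population PRK differed by -0.32 and SBPASE by 0.07, with overlapping arrays. These Peri values depended on the scaling. Array signal was 173 to 177 in Peri in KCl and 205 to 372 in continuous nitrate. On the values as deposited the difference was -0.52 for ATPC1 (adjusted p = 0.461), -0.37 for RCA (0.576) and 0.13 for PRK (0.865), and the arrays of ATPC1 and RCA overlapped. The deposited SBPASE levels were 6.81, 7.75 and 7.01 in nitrate against 6.48, 6.38 and 6.59 in KCl, all higher, at a difference of 0.71 (adjusted p = 0.144). With array signal as a covariate the difference was -1.14 for ATPC1, -0.51 for RCA, 0.17 for PRK and 0.30 for SBPASE, none past the threshold. In Peri the fit called 18.3% of all probe sets, against 0% in LRC, EndoP and Stele with continuous nitrate. The LRC count depended on 1 array: without replicate 2 in continuous nitrate 2650 probe sets were called there, none of the 4 genes among them. Leaving out the 2 sorted arrays that stood apart, which are in other populations, moved ATPC1 in Peri past the threshold (adjusted p = 0.0439).

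LRC gave small negative differences with continuous nitrate, from -0.81 for ATPC1 to -0.26 for SBPASE. EndoP gave positive ones, from 0.20 for RCA to 0.33 for PRK. Stele gave differences from -0.33 for SBPASE to -0.06 for PRK. On the values as deposited the differences ran from -0.35 (ATPC1) to 0.02 (SBPASE) in LRC and from -0.68 (SBPASE) to -0.24 (PRK) in Stele. With transitory nitrate the differences ran from -0.48 to -0.16 in LRC, from 0.09 to 0.72 in EndoP, from -0.71 to 0.37 in Peri and from 0.02 to 0.11 in Stele. In Peri they were -0.12 for ATPC1, 0.06 for RCA, 0.55 for PRK and 0.88 for SBPASE on the values as deposited, none past the threshold. Limma called 0.0104% of probe sets in LRC, 0.0675% in Peri and 0% in EndoP and Stele. The highest of these values, PRK in EndoP, included replicate 1, which stood apart and had a PRK level of 7.46 against at most 5.98 on the other arrays of its group.

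Averaged over the 5 populations, EpiC included, the continuous nitrate difference passed the test for ATPC1, at -0.94 (SE 0.22, adjusted p = 0.0297 by limma), where 0.203% of probe sets were called lower. The average difference was -0.81 for RCA (adjusted p = 0.0786), -0.52 for PRK (0.545) and -0.45 for SBPASE (0.380). The ATPC1 call was lost on the values as deposited (adjusted p = 0.123) and with median centring (0.0522). It was also lost, with adjusted p between 0.0565 and 0.0781, without any 1 of these arrays: replicate 3 of LRC, EndoP or Stele in KCl, replicate 1 of Peri in KCl, replicate 2 or 3 of EpiC in KCl, replicate 3 of EpiC or Peri in continuous nitrate, replicate 1 or 2 of EndoP or replicate 1 of Stele in continuous nitrate. With transitory nitrate the averages were -0.54 for RCA, -0.28 for PRK, -0.31 for SBPASE and -0.71 for ATPC1. None of the 4 passed there, 2 had an unadjusted p under 0.05, and 0.296% of all probe sets were called.

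Whether EpiC responded differently from the rest was put to a contrast of responses. EpiC had been set apart for its high levels in KCl, and the same KCl arrays enter this contrast. Its p-values are thus no independent test. The continuous nitrate difference in EpiC minus the mean of the other 4 populations was -2.40 for RCA (95% interval -3.48 to -1.32, adjusted p = 0.119 by limma). It was -2.19 for PRK (-3.26 to -1.13, adjusted p = 0.166), -1.86 for SBPASE (-2.67 to -1.05, adjusted p = 0.104) and -2.01 for ATPC1 (-3.10 to -0.92, adjusted p = 0.302). With transitory nitrate it was -2.31 for RCA (adjusted p = 0.195), -2.44 for PRK (0.132), -2.01 for SBPASE (0.0877) and -2.23 for ATPC1 (0.235). All 8 had an unadjusted p under 0.05 and none passed over all probe sets, where 0.00519%, a single probe set, was called in each of the 2 contrasts. The F test of the interaction over all 5 populations called 0% of probe sets in either treatment, and gave the 4 genes adjusted p of 0.0726 to 0.0782 in continuous and 0.246 to 0.294 in transitory nitrate. The EpiC falls were therefore not shown to differ from the responses of the other populations at this threshold. These calls also changed with the processing. On the values as deposited, the continuous interaction F test called all 4 genes and 3518 probe sets in all. It called all 4 without replicate 2 of LRC or replicate 3 of Peri in continuous nitrate or without replicate 1 of Stele in KCl, and 2 without replicate 2 of EndoP in continuous nitrate. The transitory contrast of EpiC with the others called 3 of the 4 without replicate 1 of EpiC in transitory nitrate.

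Over the 18 sorted groups EpiC in KCl ranked first for every gene. EpiC had been set apart for its high levels in KCl, so this rank repeats that choice. How many of all probe sets rank so, or have a first group apart from the next, was not counted. The gap to the next group mean was 1.97 for RCA (Peri in KCl), 1.81 for PRK (Peri in transitory nitrate), 1.41 for SBPASE (Peri in nitrate with MSX and glutamine) and 1.305 for ATPC1 (Peri in KCl). The arrays of the first and next group did not overlap for RCA, SBPASE and ATPC1. For PRK the lowest EpiC array, 7.86, was just under the highest array of Peri in transitory nitrate, 7.89. For ATPC1 the lowest EpiC array, 9.06, was under replicate 3 of Peri in nitrate with MSX, 9.44, a group of lower rank. Further down the order, neighbouring groups overlapped in every case, and Stele in continuous nitrate was the lowest group for all 4 genes. EpiC in continuous nitrate ranked 11 for RCA and PRK, 10 for SBPASE and 12 for ATPC1.

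In Peri, MSX and glutamine were added to ask whether nitrate acts before or after its assimilation. No difference of the 4 genes was called in the 16 tests of these groups, and none had an unadjusted p under 0.05. In nitrate with MSX, RCA measured 7.24, 6.48 and 9.43 and ATPC1 6.96, 7.29 and 9.44. PRK measured 5.85, 5.68 and 7.50 and SBPASE 6.59, 6.40 and 8.15 on the same arrays. Replicate 3 was thus the highest array of its group for all 4 genes. With MSX, nitrate minus KCl was -0.11 for RCA (95% interval -1.08 to 0.86), -0.01 for PRK, 0.06 for SBPASE and 0.49 for ATPC1 (-0.48 to 1.47). In continuous nitrate, MSX minus no MSX was 0.89 for RCA (-0.07 to 1.86), 0.11 for PRK, 0.22 for SBPASE and 0.83 for ATPC1 (-0.15 to 1.81). Without replicate 2 of nitrate with MSX, its lowest RCA array, the RCA difference was 1.51 and passed (adjusted p = 0.0334). Without replicate 3, the array high in all 4 genes, the difference was 0.04 for RCA, -0.46 for PRK, -0.33 for SBPASE and 0.06 for ATPC1. On the values as deposited it was 0.43 for RCA and 0.32 for ATPC1. In KCl, MSX minus no MSX was -0.03 for RCA, -0.20 for PRK, 0.22 for SBPASE and -0.96 for ATPC1 (-1.94 to 0.02). Glutamine added to nitrate and MSX gave differences of 0.02 for RCA, -0.02 for PRK, 0.29 for SBPASE and 0.13 for ATPC1. Limma called 0% of probe sets for nitrate with MSX, 0.0675% for MSX in KCl, 9.08% for MSX in nitrate and 0.696% for glutamine.

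The arrays of a group differed in the 4 genes together. Deviations from the group mean were taken for each of the 54 sorted arrays, so that differences between groups do not enter. Their Pearson correlation was 0.81 for RCA with ATPC1 (Spearman's rho 0.78), 0.79 for RCA with SBPASE (0.74), 0.77 for PRK with SBPASE (0.77) and 0.66 for RCA with PRK (0.70). It was 0.60 for SBPASE with ATPC1 (0.54) and 0.50 for PRK with ATPC1 (0.46). Without the 2 arrays farthest from the median the 6 coefficients were 0.39 to 0.75. Among the 19257 other probe sets, SBPASE held rank 2 in likeness to PRK by this measure and ATPC1 rank 311. In likeness to RCA, ATPC1 held rank 21, SBPASE rank 25 and PRK rank 64, and ATPC1 held rank 88 in likeness to SBPASE. The 4 values of an array come from the same RNA sample, and 3 arrays a group leave each deviation tied to the other 2, so the coefficients are a description. On replicate 3 of Peri in nitrate with MSX all 4 genes were above the group mean, RCA by 1.71, and the mean deviation of the 4, 1.38, was the largest of the 54 arrays. On replicate 1 of EpiC in transitory nitrate they were 0.19 (PRK) to 1.18 (RCA) above it.

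**Figure D3:**
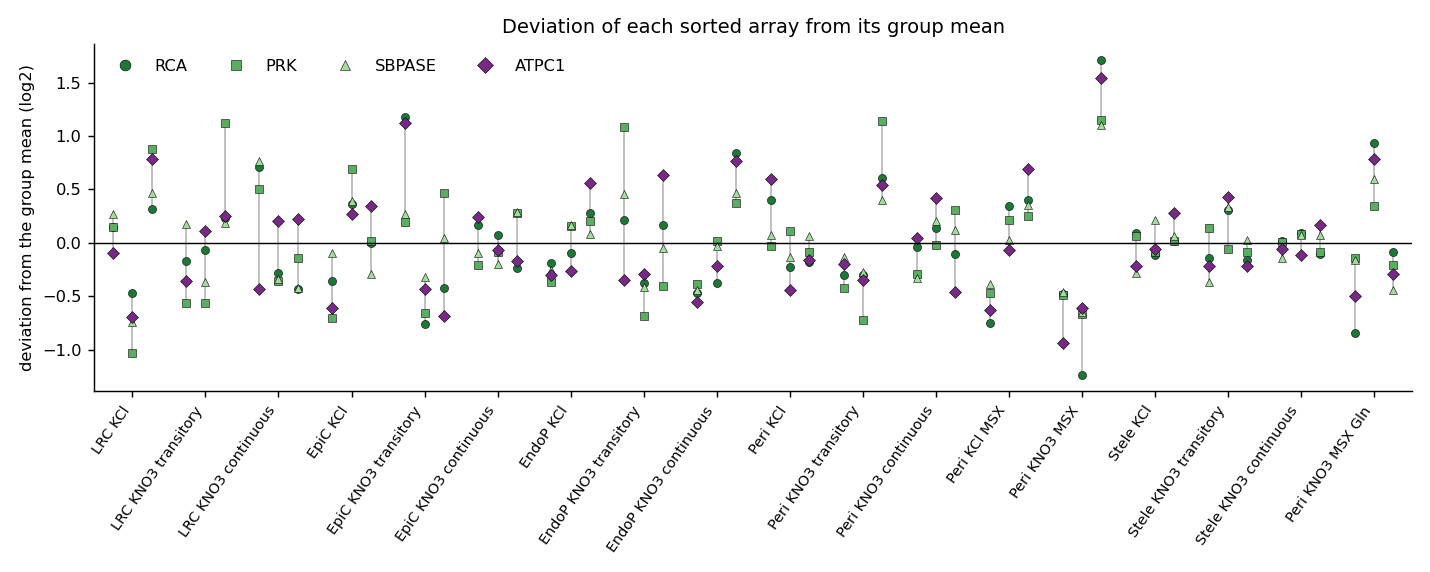
Deviation of each sorted array from its group mean (log2), for RCA, PRK, SBPASE and ATPC1, with a grey line joining the 4 values of an array and groups in order along the axis. The 4 genes tend to lie on the same side of 0 on an array, as on replicate 3 of Peri in nitrate with MSX, where their mean deviation was 1.38.

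Over the 18 group means, the genes followed one another with Pearson correlations of 0.89 to 0.96. Without EpiC in KCl, the group that stands out, the 6 coefficients were 0.78 to 0.92. ATPC2, the other gene for the gamma subunit of the plastid ATP synthase, did not follow them. Its group means lay between 5.67 and 6.53, and its correlation with the 4 genes over groups was between -0.10 and 0.15. In EpiC its arrays reached at most 6.27 in KCl, 6.42 in transitory and 6.23 in continuous nitrate, all under the filter level. At such low levels a fall or a shared course could be missed. In EpiC ATPC2 differed by 0.13 (SE 0.30, adjusted p = 1) in continuous nitrate, by 0.18 (SE 0.30, adjusted p = 1.00) in transitory nitrate, and by -0.31 (SE 0.24, adjusted p = 0.434) from the other populations in KCl. The 2 gamma subunit genes share sequence, and whether the probe sets cross-react was not tested.

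By the same measure over group means, 8 other genes were most like the mean of the 4 among 11072 candidates. These were AT3G47070 (Pearson r = 0.98), LHCB4.2 (0.94), PSAE-1 (0.94), HPR (0.94), CaS (0.94), AT2G26500 (0.93), LHCB4.1 (0.93) and AT3G16530 (0.88). LHCB4.1 and LHCB4.2 encode minor light-harvesting proteins of photosystem II, PSAE-1 a stromal subunit of photosystem I, HPR the peroxisomal hydroxypyruvate reductase of photorespiration, and CaS a thylakoid protein of calcium signalling. Each of the 8 had its highest group mean in EpiC in KCl, for example 9.91 for PSAE-1 against 6.04 to 8.82 in the other groups. They were picked over the same 18 group means, where EpiC in KCl stands out in the 4 genes. A shared peak in that group thus follows largely from the choice. Without that group the correlations were 0.77 to 0.95. The points share 18 groups of 3 arrays, and the coefficients carry no test.

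Other genes of the cycle and of related pathways were read from lists. Most list members have no probe set that could be named here. Of the Calvin-Benson list, 6 of 28 genes could be named, RCA, PRK and SBPASE among them. The other 3 did not pass with nitrate in EpiC: rbcL, the plastid gene of the large Rubisco subunit, differed by -0.49 (SE 0.49) in continuous nitrate, AT1G56190 by -0.16 (SE 0.37) and AT5G64380 by 0.12 (SE 0.68), with adjusted p of 1 in each case. In KCl AT1G56190 was 1.17 higher in EpiC than elsewhere (SE 0.30, adjusted p = 0.0155), and rbcL and AT5G64380 differed by 0.16 and 0.26 without passing.

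Of the plastid ATP synthase list, 8 of 10 genes could be named, and ATPC1 was the 1 that passed in EpiC, in KCl against the other populations and in both nitrate treatments. The 6 subunit genes of the plastid genome, atpA, atpB, atpE, atpF, atpH and atpI, differed by -1.32 to -0.41 in continuous and by -1.06 to -0.40 in transitory nitrate, none past the threshold. For atpA, atpB, atpE and atpF every continuous nitrate array was below every KCl array in EpiC, as for 4.41% of all probe sets. The arrays of atpH and atpI overlapped. With transitory nitrate the arrays of all 6 genes overlapped with KCl. In KCl they were between 0.52 lower (atpF, a difference of -0.52) and 0.72 higher (atpB) in EpiC, again without a call. The labelling starts from poly(A) tails, which plastid transcripts mostly lack, so their signals and those of nuclear transcripts do not rest on the same priming.

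**Figure D4:**
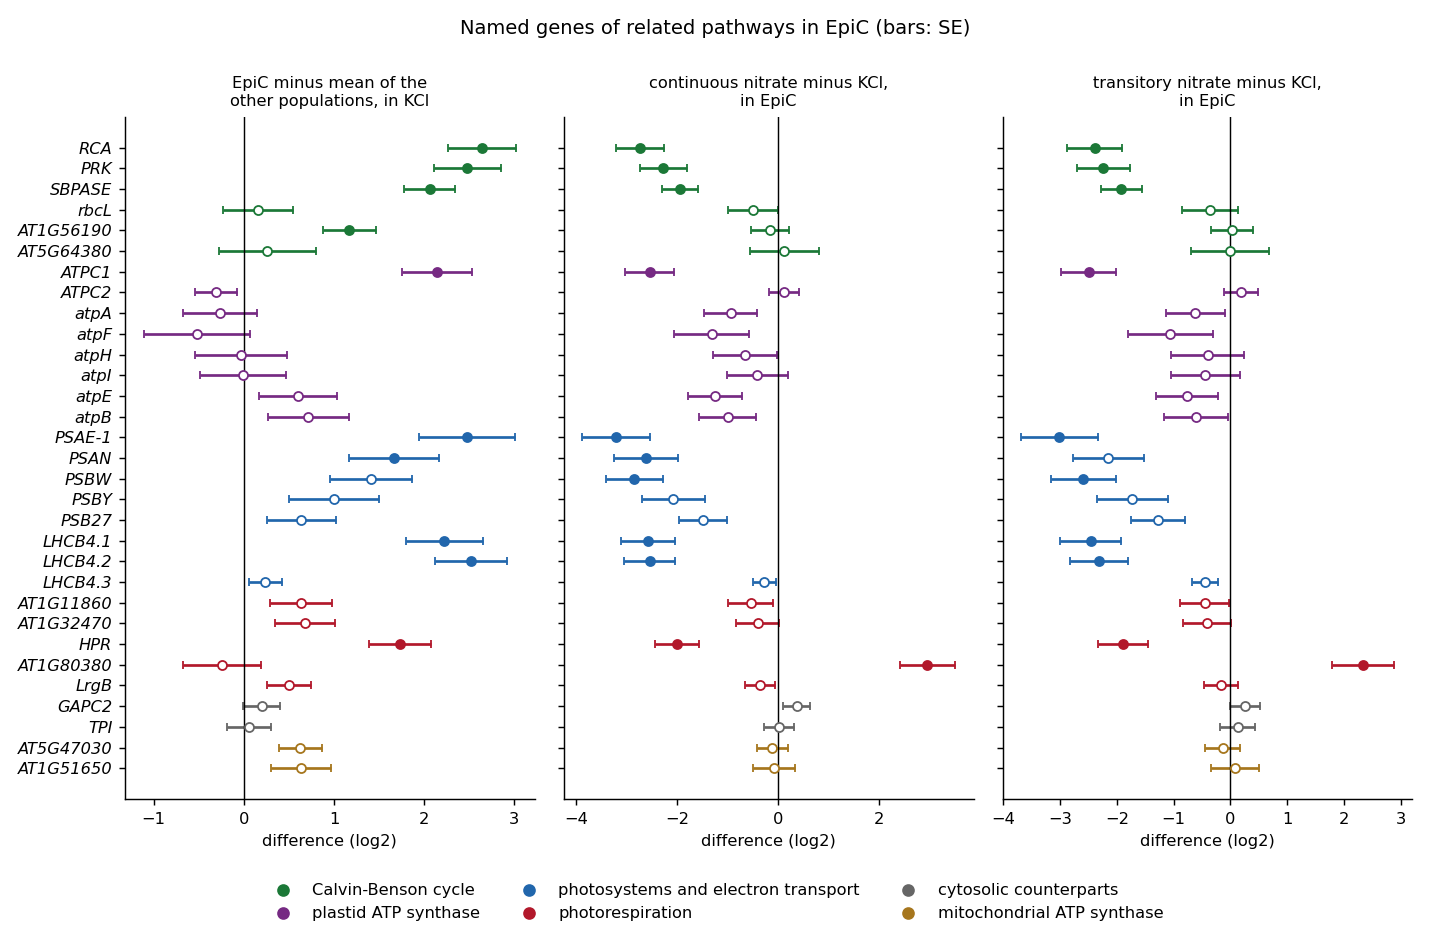
Difference (log2, with SE) of the named genes of 6 lists, for EpiC against the other populations in KCl and for both nitrate treatments against KCl within EpiC. Filled points passed an adjusted p of 0.05, and genes shown by locus have no symbol in the annotation used. RCA, PRK, SBPASE and ATPC1 are filled in the 3 panels, as are PSAE-1, LHCB4.1, LHCB4.2 and HPR.

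Of the photosystem and electron transport list, 8 of 50 genes could be named. In EpiC 5 of them fell with continuous nitrate, at differences of -3.21 for PSAE-1 (SE 0.67, adjusted p = 0.00740), -2.85 for PSBW (SE 0.57, adjusted p = 0.00539), -2.62 for PSAN (SE 0.63, adjusted p = 0.0338), -2.58 for LHCB4.1 (SE 0.54, adjusted p = 0.00740) and -2.54 for LHCB4.2 (SE 0.51, adjusted p = 0.00477). PSBY, PSB27 and LHCB4.3 differed by -2.07, -1.48 and -0.27 without passing. Of all probe sets, 0.353% were called lower in that contrast. The list's median difference was -2.56, against -0.01 over all probe sets. With transitory nitrate, where 0.254% of probe sets were called lower, 4 fell, and PSAN did not pass (-2.15, adjusted p = 0.260). In KCl 4 of the 8, PSAE-1, PSAN, LHCB4.1 and LHCB4.2, were higher in EpiC than elsewhere, as were 2.78% of all probe sets.

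Of 17 photorespiration genes, 5 could be named, and their directions differed. HPR fell by 2.01 with continuous nitrate in EpiC (SE 0.44, adjusted p = 0.0121) and differed by -1.89 with transitory nitrate (adjusted p = 0.0371). AT1G80380 rose by 2.96 (SE 0.55, adjusted p = 0.00261) and by 2.33 (adjusted p = 0.0420). AT1G11860, AT1G32470 and LrgB, listed as a plastid glycolate and glycerate transporter, differed by -0.54 to -0.36 in continuous nitrate without passing. GAPC2 and TPI, the 2 named of 7 cytosolic counterparts of cycle enzymes, differed by 0.37 and 0.02. AT5G47030 and AT1G51650, the 2 named of 9 genes listed for the mitochondrial ATP synthase, differed by -0.11 and -0.07. HYH, the 1 named of 11 regulators of photosynthesis genes and a bZIP factor of light signalling, differed by 0.70 (SE 0.56) and 0.15 (SE 0.56) without passing.

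In whole roots and unsorted protoplasts, which the one-cycle arrays measured, no difference of the 4 genes was called in 36 tests, and 4 had an unadjusted p under 0.05. The levels of RCA were 5.51 to 7.13, those of PRK 5.03 to 6.20, those of SBPASE 5.29 to 6.47 and those of ATPC1 5.52 to 6.54 on the 26 arrays used. The comparison of nitrate with KCl called 0% of probe sets in protoplasts with either treatment and 0% in whole roots at 2 h and at 3.5 h. In protoplasts the continuous nitrate difference was 0.13 for RCA (95% interval -0.33 to 0.60), 0.24 for PRK (-0.22 to 0.69), -0.10 for SBPASE (-0.44 to 0.24) and -0.08 for ATPC1 (-0.53 to 0.38). With transitory nitrate the differences ran from 0.02 for SBPASE to 0.38 for RCA. In whole roots at 3.5 h they ran from -0.12 for PRK to -0.01 for RCA.

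Whole roots at 2 h gave positive differences. SBPASE measured 6.23, 5.92 and 5.70 in nitrate, against 5.29 and 5.50 on the 2 KCl arrays used. The nitrate arrays all lay above these 2, and the difference was 0.55 (95% interval 0.17 to 0.93, adjusted p = 1 by limma). The KCl array left out, replicate 1, measured 6.51 for SBPASE, above all of the nitrate arrays. RCA, PRK and ATPC1 differed by 0.44, 0.36 and 0.45 with overlapping arrays. Between 2 h and 3.5 h of nitrate, SBPASE and PRK were lower at the later time on every array, at differences of -0.52 (adjusted p = 0.195) and -0.59 (adjusted p = 0.289), where 0.356% of probe sets were called. The share of all probe sets without overlap was not counted in whole roots. In KCl the later time differed by -0.11 for PRK to 0.30 for ATPC1, and 0% of probe sets were called.

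**Figure D5:**
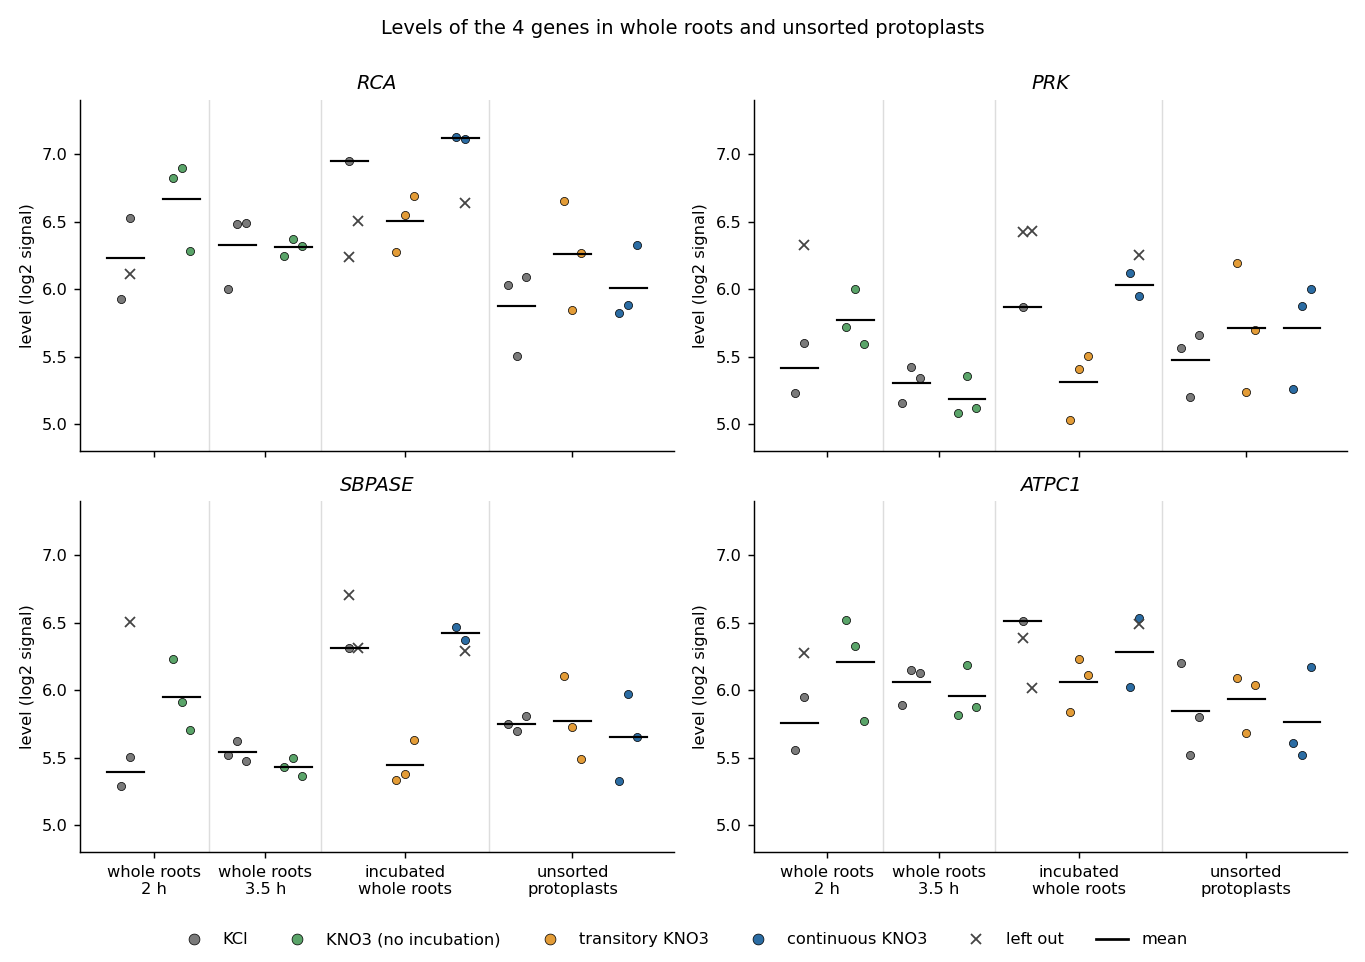
Level (log2 signal) of RCA, PRK, SBPASE and ATPC1 on each one-cycle array of whole roots, incubated whole roots and unsorted protoplasts, with a line at the mean of the arrays used and crosses for the 4 arrays left out. The groups lie between 5.03 and 7.13 and overlap in most pairs.

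Digestion to protoplasts did not move the 4 genes past the threshold. Protoplasts minus whole roots at 3.5 h gave -0.45 for RCA (adjusted p = 0.222), 0.17 for PRK, 0.21 for SBPASE and -0.21 for ATPC1 in KCl, where 8.23% of probe sets were called. In nitrate the differences were -0.30, 0.53, 0.22 and -0.19, with an adjusted p of 0.118 for PRK and 14.4% of probe sets called. Without replicate 1 of protoplasts in continuous nitrate, PRK differed by 0.75 and passed (adjusted p = 0.0371). Protoplasts minus incubated whole roots in transitory nitrate gave -0.25, 0.40, 0.33 and -0.12, with 17.1% of probe sets called. RNA of protoplasts came from columns and RNA of whole roots from TRIzol, and digestion and extraction cannot be told apart here. Incubated roots in KCl kept 1 array, at 6.95 for RCA, 5.87 for PRK, 6.31 for SBPASE and 6.52 for ATPC1. Incubated roots in continuous nitrate kept 2, at 7.13 and 7.12 for RCA and 6.47 and 6.37 for SBPASE, and those in transitory nitrate measured 6.28 to 6.69 for RCA and 5.33 to 5.63 for SBPASE. These incubated groups were not compared with each other here.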

How the data were processed

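Each of 84 Affymetrix ATH1 arrays has 22810 deposited values, expression signals on a log2 scale, 1 per probe set. The software, background correction and normalization are not given in the sources used here, and the scale was inferred from their range, 0 to 14.463. EpiC groups were taken from titles, since their source names all read continuous. The members, the lists and the contrasts of EpiC with the other populations were chosen with earlier results of these data known. Sorted arrays, whose medians spanned 1.04, were quantile normalized. One-cycle values were used as deposited, without the 4 arrays whose median Pearson correlation to the other one-cycle arrays was under 0.7. Probe sets above the 40th percentile on at least 3 arrays were tested (19258 sorted, 17152 one-cycle), without 64 controls. Models with 1 coefficient per group used limma 3.58.1 (R 4.3.3, eBayes with trend), with two-sided tests in 34 comparisons with Benjamini-Hochberg adjustment over all probe sets at 0.05, and the fit was checked on simulated data. With 3 arrays against 3, the exact permutation p cannot go below 0.1. A single gene is annotated to 13513 probe sets, more than 1 to 503 and no gene to 8794. Intervals are 95% confidence intervals of the model. Precision is limited by the number of arrays. The text names the 4 genes in every comparison, list genes that passed or are nearest relatives, list counts, and the 8 genes most alike. All 3 same-numbered pairs correlated over 0.1 in 3 of 24 comparisons (LRC and EndoP with continuous nitrate, whole roots at 3.5 h). Whole roots in KCl, 3.5 h against 2 h, had only 2 pairs, at 0.11 and 0.37. A limit of 0.1 on so few pairs cannot settle whether replicate numbers pair samples. Alternatives were the values as deposited, median centring, one-cycle quantile normalization, no filter, only the arrays compared, the replicate block, array signal as a covariate, all one-cycle arrays, without the sorted arrays that stood apart, and without each array in turn. Figures were drawn with matplotlib 3.10.9.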

Additional observations from a re-analysis of the deposited data

Results flagged for a closer look

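SBPASE with transitory nitrate gave differences of opposite sign in Peri and EpiC, and the Peri difference was not called. The item was picked for this from these same values. In Peri its level was 0.37 higher than in KCl on the log2 scale (adjusted p = 0.471 by limma), with 6.85 to 7.52 in nitrate against 6.63 to 6.83 in KCl. On the values as deposited the difference was 0.88 (adjusted p = 0.0922). Every Peri nitrate array lay above every KCl array, while every EpiC nitrate array lay below every KCl array. In Peri the normalized arrays were barely apart, at 6.85 against 6.83. The share of all probe sets apart in this way was not counted in Peri. The difference between Peri and EpiC alone was not tested.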

How the results depend on the processing

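Of 602 counts of called genes (of 4) over all alternatives, 563 kept the count of the reported fit or stayed within 1.5 times it, and no called value changed sign. EpiC against the other populations in KCl kept all 4 calls in all 22 alternatives. That contrast was chosen from earlier results of these data, and the alternatives refit the same values, so they are no independent test. For the mean of 5 populations in continuous nitrate the count was 0 on values as deposited and with median centring, 2 with only the arrays compared and without the sorted arrays that stood apart, and 0 to 2 leaving out single arrays. For the continuous interaction F test it was 4 as deposited and with only the arrays compared, and 0 to 4 leaving out single arrays. For EpiC against the others in the continuous response it was 3 with only the arrays compared. In the transitory response it was 2 with only the arrays compared, 1 with array signal as a covariate, 1 without the arrays that stood apart, and 0 to 3 leaving out single arrays. EpiC with transitory nitrate gave 0 with only the arrays compared and 0 to 4 leaving out single arrays, and EpiC with continuous nitrate 1 to 4. The replicate block gave 1 for Peri with continuous nitrate (ATPC1, adjusted p = 0.0448) and changed no other count. Replicate numbers were not shown to pair the samples in Peri. Peri with continuous nitrate also gave 1 without the arrays that stood apart. MSX in continuous nitrate and protoplasts against roots in nitrate gave 0 to 1 leaving out single arrays. A fit to only the arrays compared has fewer arrays for its estimate of the spread, and its counts moved up as well as down. The cause of these changes was not tested. The number of probe sets called moved by over 1.5 times in several of these: EpiC with transitory nitrate had 58, with 0 without transitory replicate 3, and the continuous interaction F test 0, with 3518 as deposited and 773 with only the arrays compared. A fit with batch as a block could not be run, since the scanner files hold no batch. Limits: 3 arrays a group, 1 probe set a gene, PRK near the low end, and an unstated upstream normalization.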
